A study of Mus musculus with 12 samples.

Results

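The NRF2 antioxidant and metallothionein genes examined here were Hmox1, Nqo1, Gclm, Gclc, Txnrd1, Srxn1, Slc7a11, Mt1, Mt2 and Gsta4, taken from the expression table by gene symbol. All 10 were listed among 55487 genes and all 10 were among the 16016 genes that reached 1 TPM in at least 3 libraries. TPM is a level per transcript length and per library, so that levels of different genes can be compared. RNA was sequenced from cultures of glial cells of the cochlear ganglion region of mice of mixed C57BL6 and FVB/N background at postnatal day 4, in 4 groups of 3 libraries. Spheres were cells grown in suspension with EGF, bFGF, IGF and heparan sulfate. SCDM cells were sphere cells differentiated for 14 days with BDNF and NT3, each at 50 ng/ml, and SCDM/FGF cells additionally received bFGF at 100 ng/ml. FIBCL cells were differentiated for 14 days with forskolin at 20 μM, ISX9 at 20 μM, I-BET at 1 μM, CHIR99021 at 10 μM and LIF at 1000 U/ml, together with bFGF, which the labels list at both 50 and 100 ng/ml. FIBCL cells had another base medium and no listed BDNF or NT3, so base medium, growth factors and small molecules cannot be told apart in any comparison of FIBCL with SCDM or SCDM/FGF. B27 and N2 supplements were present in all 4 groups, and the ganglia of several mice of both sexes were pooled. The table heads the FIBCL columns FIBC, the study's name for the 4 small molecules without LIF. They were matched to FIBCL because no other group in the labels holds these molecules. The labels call the replicates biological but do not say that they came from separate animals or cultures, so the p-values measure the spread between these libraries only.

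NRF2, encoded by Nfe2l2, is a transcription factor that KEAP1 holds in the cytoplasm and targets for degradation. When electrophiles or oxidants modify KEAP1, NRF2 enters the nucleus, pairs with a small MAF protein and binds antioxidant response elements beside genes for glutathione synthesis, thioredoxin recycling, quinone reduction and heme breakdown, while BACH1 competes for the same elements. Metallothioneins are small cysteine-rich proteins that bind zinc and copper, and the zinc sensor MTF1 drives them through metal response elements.

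The listed TPM summed to between 982067 and 994845 per library in spheres, SCDM and SCDM/FGF and to between 899295 and 911076 in FIBCL, and the number of reads behind them is unknown. Levels are therefore given as scaled TPM, in which libraries were set to each other on 8434 broadly expressed genes. Without that scaling, the median log2 difference of all genes lay at -0.40 for FIBCL against SCDM, -0.31 against SCDM/FGF and -0.52 against spheres, and with it at -0.07, -0.05 and -0.06. A gene is said to have risen or fallen where limma gave a Benjamini-Hochberg adjusted p under 0.05 over all genes tested and a log2 fold change of at least 1 in size. Fold changes are differences of log2(scaled TPM + 1), which understates the change of low genes. Groups without overlapping libraries were common among all genes tested. The share was lowest in SCDM/FGF against SCDM, at 51.6%, and highest in FIBCL against spheres, at 75%. The cultures were mixed. Summed over 9 glial markers, scaled TPM was 17.2 to 23.1 in FIBCL, 188 to 211 in SCDM/FGF, 193 to 223 in SCDM and 531 to 557 in spheres, and 9 neuronal markers summed to 401 to 428, 17.1 to 22.3, 18.8 to 21.6 and 15.0 to 15.9 in the same order. Mesenchyme markers (10 genes) summed to at least 2629 in every sphere library, at least 5362 in every SCDM and SCDM/FGF library and at most 243 in FIBCL, where 8 of the 10 were at their lowest mean while Twist1 (110) and Prrx1 (60.7) were at their highest. Melanocyte and red cell markers (5 genes each) summed to at most 9.58 and 3.39. In bulk RNA, fewer cells of a type and less RNA per cell cannot be told apart.

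RefSeq promoter windows on GRCm38.p6, from 250 bases before to 50 bases after an annotated start, were found for 7 of the 10 genes, in 9 windows. They were searched on both strands for TGACNNNGC (antioxidant response element core), TGCACNC or TGCGCNC (metal response element core), TGACGTCA (cAMP response element) and its short form TGACG, and TGANTCA (AP-1 site). The bases before the start are shown for the adjacent metallothionein pair and for Txnrd1 and Srxn1, the 2 genes that rose in FIBCL against each other group. Capitals mark the metal response element core in the first pair, the antioxidant response element core in Txnrd1 and the AP-1 site in Srxn1.
Mt2, chr8:94172368-94172617, + strand: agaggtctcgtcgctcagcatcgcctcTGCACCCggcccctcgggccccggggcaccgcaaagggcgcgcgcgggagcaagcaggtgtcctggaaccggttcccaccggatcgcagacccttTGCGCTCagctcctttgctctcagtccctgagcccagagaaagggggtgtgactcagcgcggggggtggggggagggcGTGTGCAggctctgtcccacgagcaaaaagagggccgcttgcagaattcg
Mt1, chr8:94178839-94179088, + strand: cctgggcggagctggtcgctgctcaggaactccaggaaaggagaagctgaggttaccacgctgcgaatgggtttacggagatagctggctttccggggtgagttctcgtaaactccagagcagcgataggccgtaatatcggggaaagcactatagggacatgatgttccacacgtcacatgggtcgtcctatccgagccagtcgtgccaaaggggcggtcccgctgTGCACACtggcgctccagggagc
Txnrd1, second of 3 windows, chr10:82858956-82859205, + strand: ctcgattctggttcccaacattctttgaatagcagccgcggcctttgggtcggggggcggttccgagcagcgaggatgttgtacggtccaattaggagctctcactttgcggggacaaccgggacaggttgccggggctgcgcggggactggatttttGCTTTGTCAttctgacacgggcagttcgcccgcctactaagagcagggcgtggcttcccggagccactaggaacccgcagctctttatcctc
Srxn1, chr2:152105274-152105523, + strand: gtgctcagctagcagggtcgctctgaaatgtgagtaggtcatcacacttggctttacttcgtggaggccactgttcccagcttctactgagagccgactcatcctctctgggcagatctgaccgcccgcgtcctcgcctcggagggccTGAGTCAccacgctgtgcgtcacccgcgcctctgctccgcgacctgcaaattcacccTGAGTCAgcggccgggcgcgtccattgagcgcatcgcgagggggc
The Mt2 window held 4 metal response element cores, starting at positions -223, -128, -50 and 5 from the start, and 0.517% of all 32851 windows held 4 or more. The Mt1 window held 3, at -23, 3 and 21, the Gclm window also held 3, at -138, -72 and 28, and the Srxn1 window held 1, at -19. At least 1 such core was found in 25.7% of all windows. An antioxidant response element core was found in 12.4% of all windows and, among these genes, in Mt2 at -79, where it overlapped an AP-1 site, in Gclm at -134, in Txnrd1 at -92 and in Srxn1 at 29. Srxn1 held AP-1 sites at -102 and -45, and such a site was found in 7.81% of all windows. The site at -45 is followed by GC. The letters TGAGTCAGC there differ from the searched TGACNNNGC only by G in place of C, so the search did not count them as an antioxidant response element core. Whether NRF2 binds there was not tested. None of the 9 windows held TGACGTCA, beside 1.79% of all windows. The short form TGACG was found in Srxn1 at -85, in Gclm at -130, in Mt1 at -77 and in the second Txnrd1 window at 11, and in 20.8% of all windows. The windows of Nqo1 and Slc7a11, and the first and the third of Txnrd1, held none of these letters, which says nothing about sites farther away. The counts of the other windows, that of Mt1 included, likewise leave out sites more than 50 bases after the annotated start. Whether the annotated starts are those used in these cells was not tested.

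**Figure D1:**
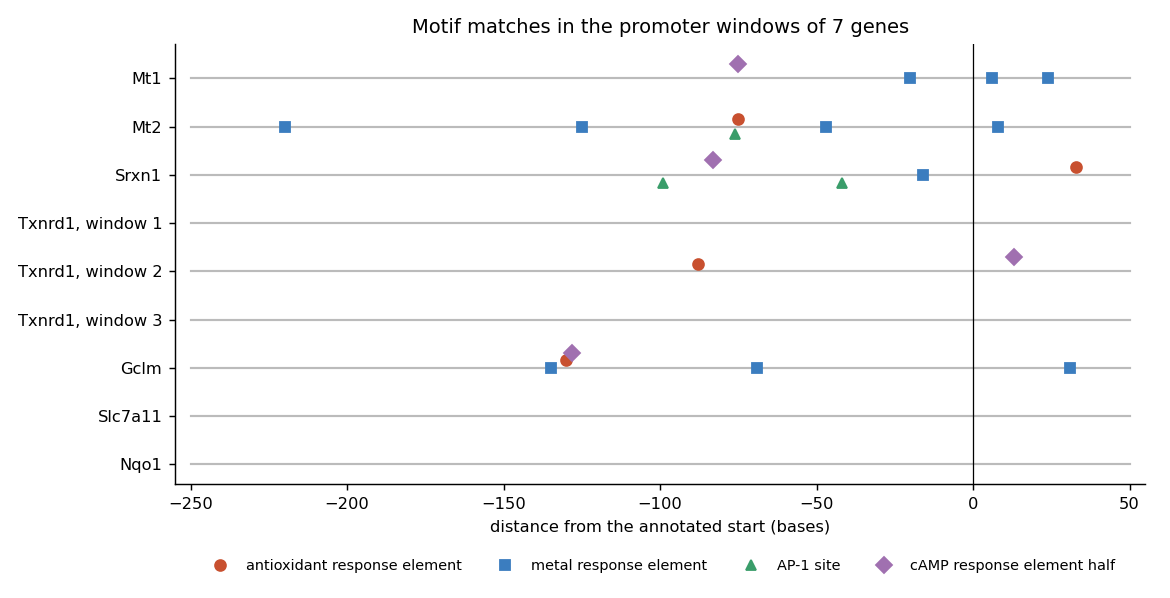
Positions of motif matches (x axis, bases from the annotated start, negative before it) in the 9 promoter windows of 7 genes (rows), with 1 symbol for each motif. Mt2 has 4 metal response element cores, Mt1 and Gclm have 3 each and Srxn1 has 1, while the Nqo1 and Slc7a11 windows have no match.

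In FIBCL against SCDM, 8 of the 10 genes rose, where 13.2% of all genes tested did, and 1 fell, where 16.2% did. The median log2 fold change was 1.88 over the 10 genes and -0.07 over all genes. On unscaled TPM Hmox1 (0.75) and Gclc (0.80) were no longer called in this comparison. Of all genes, 9.3% were then called higher and 23.3% lower. FIBCL against spheres gave 5 that rose (background 12.5%) and 1 that fell (background 15.5%), and FIBCL against SCDM/FGF gave 3 that rose (background 12.0%) and 1 that fell (background 15.8%). SCDM/FGF against SCDM gave 4 that rose, beside 5.73% of all genes, and none that fell in limma, beside 4.04%, with 0 lower also at an unadjusted p under 0.05. SCDM/FGF against spheres gave 3 that rose (7.39% of all genes) and 1 that fell (4.73%). In SCDM against spheres 4 fell, beside 5.46% of all genes, and 0 rose in limma, beside 6.94%. The 3 that were higher at an unadjusted p under 0.05 were Hmox1 (0.87), Gclm (0.55) and Txnrd1 (0.28). They also had a limma adjusted p under 0.05 and missed only the fold limit. These comparisons share groups and are not independent of each other. The 10 genes were chosen with earlier results of these data known, so the contrast with all genes is only a description.

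**Figure D2:**
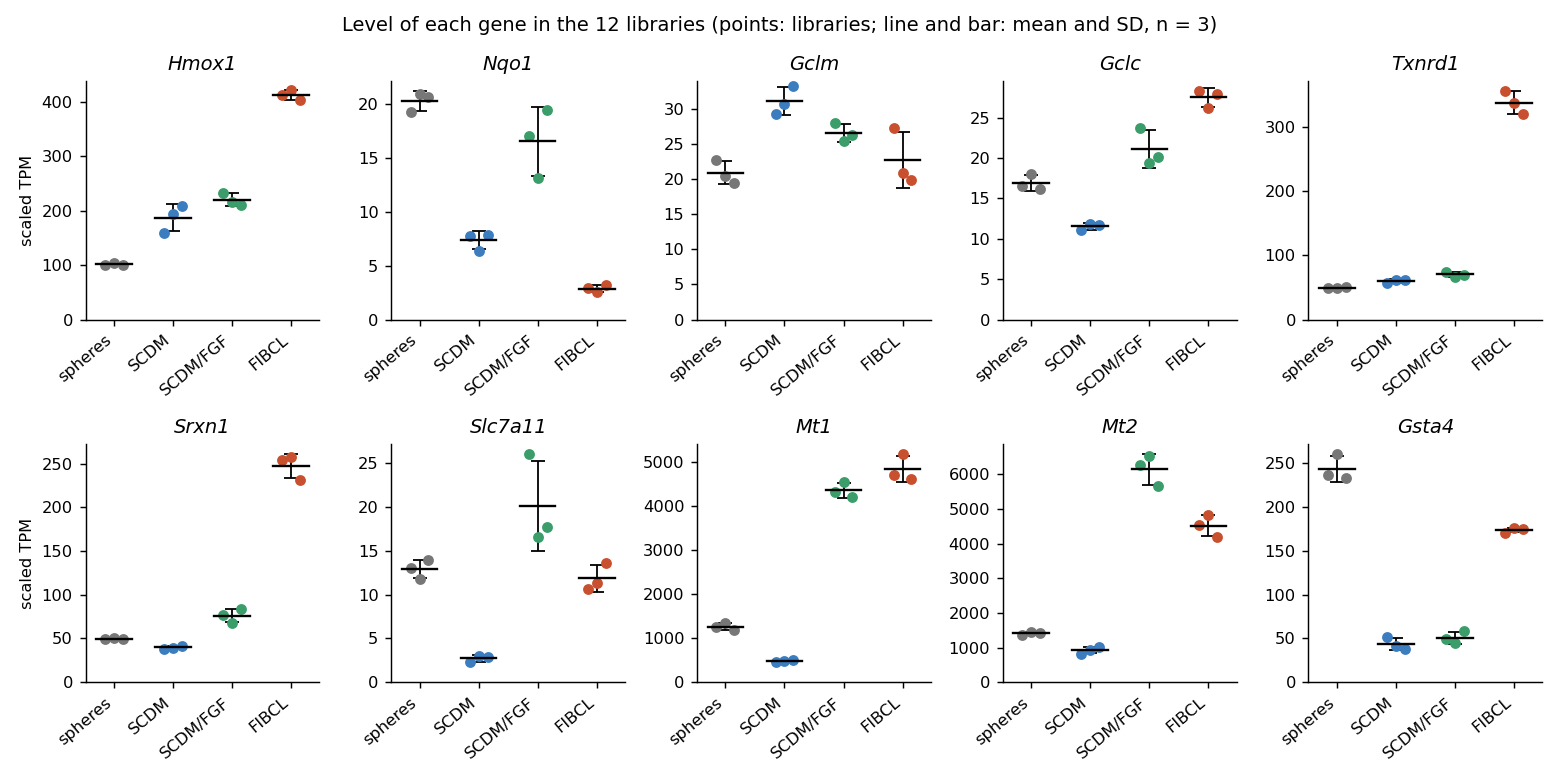
Scaled TPM (y axis, from 0) of each of the 10 genes in 12 libraries, by group (x axis), with points for libraries and the mean and SD of 3 libraries as line and bar. Txnrd1 lies between 320 and 356 in FIBCL and at most at 73.4 elsewhere, whereas Nqo1 is at most 3.18 in FIBCL.

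Mt1 and Mt2 had the highest levels of the 10 genes in all 4 groups. On log2(scaled TPM + 1) they also had the highest fold changes of the 10 in SCDM/FGF against SCDM. By the plain ratio of group means, Slc7a11 (7.37 times) lay between Mt1 (9.09) and Mt2 (6.65) there. Mt1 and Mt2 lie 5513 bases apart on chromosome 8 (GENCODE M21, GRCm38, Mt2 at chr8:94172664-94173568 and Mt1 at chr8:94179082-94180327). Mt1 had 4705, 5170 and 4612 scaled TPM in FIBCL, 4308, 4534 and 4202 in SCDM/FGF, 455, 477 and 503 in SCDM and 1247, 1335 and 1182 in spheres. Every SCDM/FGF and FIBCL library was above every sphere library, and every SCDM library was below. Mt1 rose by 3.18 ± 0.06 (log2, SE) in SCDM/FGF against SCDM (limma, adjusted p = 3.64e-11) and by 3.33 ± 0.06 in FIBCL against SCDM (limma, adjusted p = 2.67e-12). It fell by 1.39 ± 0.06 in SCDM against spheres (limma, adjusted p = 1.18e-08). Between FIBCL and SCDM/FGF the Mt1 difference was 0.15 ± 0.06, under the fold limit, and its direction turned to -0.17 on unscaled TPM.

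Mt2 had 4538, 4823 and 4199 scaled TPM in FIBCL, 6266, 6518 and 5649 in SCDM/FGF, 829, 940 and 1004 in SCDM and 1369, 1457 and 1416 in spheres. The 4 groups did not overlap, and the highest levels were in SCDM/FGF, where Mt2 was the 13th and Mt1 the 20th most abundant gene listed. Mt2 rose by 2.73 ± 0.08 in SCDM/FGF against SCDM (limma, adjusted p = 4.25e-10) and by 2.29 ± 0.08 in FIBCL against SCDM (limma, adjusted p = 3.25e-10). FIBCL against SCDM/FGF gave -0.44 ± 0.08, under the fold limit. Together Mt1 and Mt2 made up 0.137% to 0.162% of the listed TPM in SCDM, 0.311% to 0.321% in spheres, 0.746% to 0.891% in FIBCL and 0.987% to 1.11% in SCDM/FGF. Endothelial markers (4 genes) also had their highest sum in SCDM/FGF, at 264 to 303 scaled TPM, against 104 to 108 in spheres, 38.1 to 46.0 in SCDM and 12.8 to 13.3 in FIBCL, where Emcn was at 0. Emcn made up most of that sum in SCDM/FGF (mean 249) and Cdh5 was also highest there (36.6), whereas Kdr was highest in FIBCL (10.1) and Pecam1 in spheres (1.85). The part of endothelial cells in the metallothionein levels was not tested.

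The balance of the pair also differed between groups. Within a library the ratio of Mt1 to Mt2 was 0.519 ± 0.026 (SD, n = 3) in SCDM, 0.709 ± 0.030 in SCDM/FGF, 0.887 ± 0.046 in spheres and 1.07 ± 0.031 in FIBCL. An exact permutation test over all 15400 ways to split 12 libraries into these groups gave p = 6.49e-05, the smallest it can give, and 9.74e-05 after adjustment over 3 ratios. The longest run of identical bases between Mt1 and Mt2 transcripts was 20 bases. An antisense gene, Gm45774, overlaps Mt2 and was listed at up to 16.1 scaled TPM.

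**Figure D3:**
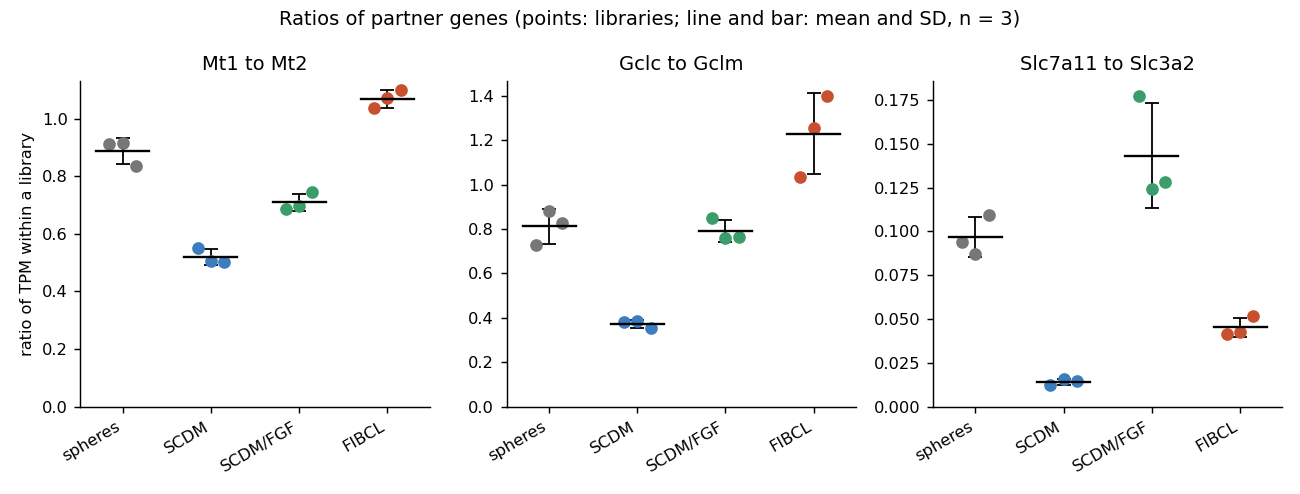
Ratio of TPM of 2 partner genes within a library (y axis, from 0) for 3 pairs, by group (x axis), with points for libraries and the mean and SD of 3 libraries. Mt1 to Mt2 runs from 0.519 in SCDM to 1.07 in FIBCL, and SCDM is lowest in all 3 pairs.

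Hmox1 encodes heme oxygenase 1, which breaks heme down to biliverdin, iron and carbon monoxide (chr8:75093621-75100589). Its level was 414, 422 and 404 scaled TPM in FIBCL, 233, 216 and 210 in SCDM/FGF, 159, 194 and 208 in SCDM and 101, 103 and 101 in spheres. On scaled TPM the groups did not overlap, although SCDM and SCDM/FGF lay close to each other. On unscaled TPM SCDM (167 to 220) and SCDM/FGF (207 to 238) overlapped. Hmox1 rose by 2.01 ± 0.08 in FIBCL against spheres (limma, adjusted p = 1.14e-09), by 1.15 ± 0.08 in FIBCL against SCDM (limma, adjusted p = 1.33e-07) and by 1.10 ± 0.08 in SCDM/FGF against spheres (limma, adjusted p = 6.07e-07). On unscaled TPM the last 2 differences were 0.75 and 0.88 and no longer passed the fold limit. Macrophages, which express Hmox1, had 11 markers that summed to 176 to 206 scaled TPM in FIBCL, 2172 to 2343 in SCDM/FGF, 1997 to 2229 in SCDM and 158 to 201 in spheres. Most of the FIBCL sum was Cd68 (mean 165). Without Cd68 the other 10 markers, each at its lowest mean in FIBCL, summed to 23.9 to 29.0 there and to 125 to 159 in spheres. Their part in the Hmox1 levels was not tested.

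Txnrd1, the cytosolic thioredoxin reductase, and Srxn1, the sulfiredoxin that repairs overoxidised peroxiredoxins, rose in FIBCL against each of the other groups. Txnrd1 (chr10:82833951-82897712) had 356, 337 and 320 scaled TPM in FIBCL, 73.4, 67.0 and 70.0 in SCDM/FGF, 56.5, 61.8 and 62.2 in SCDM and 49.4, 48.5 and 50.0 in spheres. It rose by 2.47 ± 0.05 in FIBCL against SCDM (limma, adjusted p = 7.58e-12), by 2.25 ± 0.05 against SCDM/FGF (limma, adjusted p = 1.57e-11) and by 2.75 ± 0.05 against spheres (limma, adjusted p = 3.87e-12). The other 3 groups differed from each other by at most 0.50. Eid3 overlaps Txnrd1 on the same strand and was listed at no more than 3.93 scaled TPM.

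Srxn1 (chr2:152105516-152111376) had 254, 257 and 231 scaled TPM in FIBCL, 77.0, 68.2 and 83.4 in SCDM/FGF, 37.5, 39.7 and 42.0 in SCDM and 49.2, 50.8 and 49.8 in spheres. No groups overlapped, and SCDM was lowest. Srxn1 rose by 2.61 ± 0.07 in FIBCL against SCDM (limma, adjusted p = 4.52e-11), by 1.69 ± 0.07 against SCDM/FGF (limma, adjusted p = 1.67e-09) and by 2.28 ± 0.07 against spheres (limma, adjusted p = 1.45e-10). SCDM/FGF against SCDM gave 0.92 ± 0.07, just under the fold limit.

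The first step of glutathione synthesis is carried out by a catalytic subunit, GCLC, and a modifier subunit, GCLM, whose transcripts moved apart. Gclc (chr9:77754535-77794485) had 28.4, 26.2 and 28.0 scaled TPM in FIBCL, 23.8, 19.4 and 20.1 in SCDM/FGF, 11.1, 11.8 and 11.7 in SCDM and 16.6, 18.1 and 16.1 in spheres. On scaled TPM the 4 groups did not overlap. On unscaled TPM SCDM/FGF (19.27 to 24.25) overlapped both FIBCL (21.3 to 23.71) and spheres (19.22 to 20.68). Gclc rose by 1.19 ± 0.08 in FIBCL against SCDM (limma, adjusted p = 6.83e-08), a difference of 0.80 on unscaled TPM, where the call was lost. Gclm (chr3:122245557-122270732) had 27.4, 20.9 and 19.9 scaled TPM in FIBCL, 28.0, 25.5 and 26.3 in SCDM/FGF, 29.3, 30.8 and 33.3 in SCDM and 22.8, 20.5 and 19.5 in spheres. Its FIBCL libraries overlapped those of spheres and of SCDM/FGF, and it passed the fold limit in no comparison, with a log2 difference of -0.45 ± 0.11 in FIBCL against SCDM. Within a library the ratio of Gclc to Gclm was 0.373 ± 0.017 (SD, n = 3) in SCDM, 0.791 ± 0.050 in SCDM/FGF, 0.813 ± 0.078 in spheres and 1.23 ± 0.18 in FIBCL, with p = 0.000584 in the exact permutation test before and after adjustment. The SCDM/FGF and sphere ratios overlapped.

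Cystine for glutathione is imported by xCT, encoded by Slc7a11, in a dimer with the heavy chain encoded by Slc3a2. Slc7a11 (chr3:49892526-50443614) had 10.6, 11.3 and 13.6 scaled TPM in FIBCL, 26.1, 16.6 and 17.8 in SCDM/FGF, 2.28, 3.01 and 2.92 in SCDM and 13.0, 11.8 and 14.0 in spheres. SCDM was low in all 3 libraries, SCDM/FGF was highest, and FIBCL overlapped spheres. Slc7a11 rose by 2.48 ± 0.16 in SCDM/FGF against SCDM (limma, adjusted p = 2.1e-07) and by 1.78 ± 0.16 in FIBCL against SCDM (limma, adjusted p = 1.04e-06), and it fell by 1.90 ± 0.16 in SCDM against spheres (limma, adjusted p = 1.67e-06). Slc3a2 followed another order, with means of 264 scaled TPM in FIBCL, 140 in SCDM/FGF, 199 in SCDM and 135 in spheres, and passed the fold limit in no comparison. The ratio of Slc7a11 to Slc3a2 was 0.0142 ± 0.0017 (SD, n = 3) in SCDM, 0.0453 ± 0.0055 in FIBCL, 0.0968 ± 0.012 in spheres and 0.143 ± 0.030 in SCDM/FGF, with no overlap between groups and p = 6.49e-05 in the exact permutation test (9.74e-05 adjusted over 3 ratios).

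Gsta4, a glutathione transferase that detoxifies 4-hydroxynonenal from lipid peroxidation, was high in spheres and FIBCL and low in the SCDM media. Its level (chr9:78182774-78209349) was 171, 176 and 175 scaled TPM in FIBCL, 49.7, 44.4 and 58.3 in SCDM/FGF, 51.8, 41.9 and 37.8 in SCDM and 236, 261 and 234 in spheres. SCDM and SCDM/FGF overlapped and both lay below FIBCL and spheres. Gsta4 fell by 2.46 ± 0.11 in SCDM against spheres (limma, adjusted p = 1.36e-08) and by 2.25 ± 0.11 in SCDM/FGF against spheres (limma, adjusted p = 2.9e-08), and rose by 1.98 ± 0.11 in FIBCL against SCDM (limma, adjusted p = 2.15e-08). FIBCL against spheres gave -0.48 ± 0.11, which became -1.03 and passed the fold limit on unscaled TPM. Summed macrophage and mesenchyme markers were both higher in the SCDM media than in spheres and FIBCL, and their part in the Gsta4 level was not tested. Reads shared with other alpha class transferases could move between genes in the counting.

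Nqo1, a quinone reductase and a standard NRF2 target, fell in FIBCL against each of the other groups, where Txnrd1 and Srxn1 rose. Its level (chr8:107388225-107403206) was 2.90, 2.54 and 3.18 scaled TPM in FIBCL, 17.1, 13.1 and 19.4 in SCDM/FGF, 7.78, 6.39 and 7.89 in SCDM and 19.3, 21.0 and 20.7 in spheres. FIBCL was below all other libraries, and SCDM/FGF overlapped spheres. Nqo1 fell by 2.46 ± 0.13 in FIBCL against spheres (limma, adjusted p = 1.22e-08), by 2.17 ± 0.13 against SCDM/FGF (limma, adjusted p = 3.65e-08) and by 1.11 ± 0.13 against SCDM (limma, adjusted p = 1.19e-05). It also fell by 1.36 ± 0.13 in SCDM against spheres (limma, adjusted p = 5.41e-06). Its rise of 1.06 ± 0.13 in SCDM/FGF against SCDM (limma, adjusted p = 4.68e-05) was no longer called on unscaled TPM (0.98), without SCDM replicate 2 (0.97) or without SCDM/FGF replicate 3 (0.94). All 9 glial markers and 8 of the 10 mesenchyme markers were also at their lowest mean in FIBCL, with Twist1 and Prrx1 at their highest, and their part in the Nqo1 level was not tested.

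**Figure D4:**
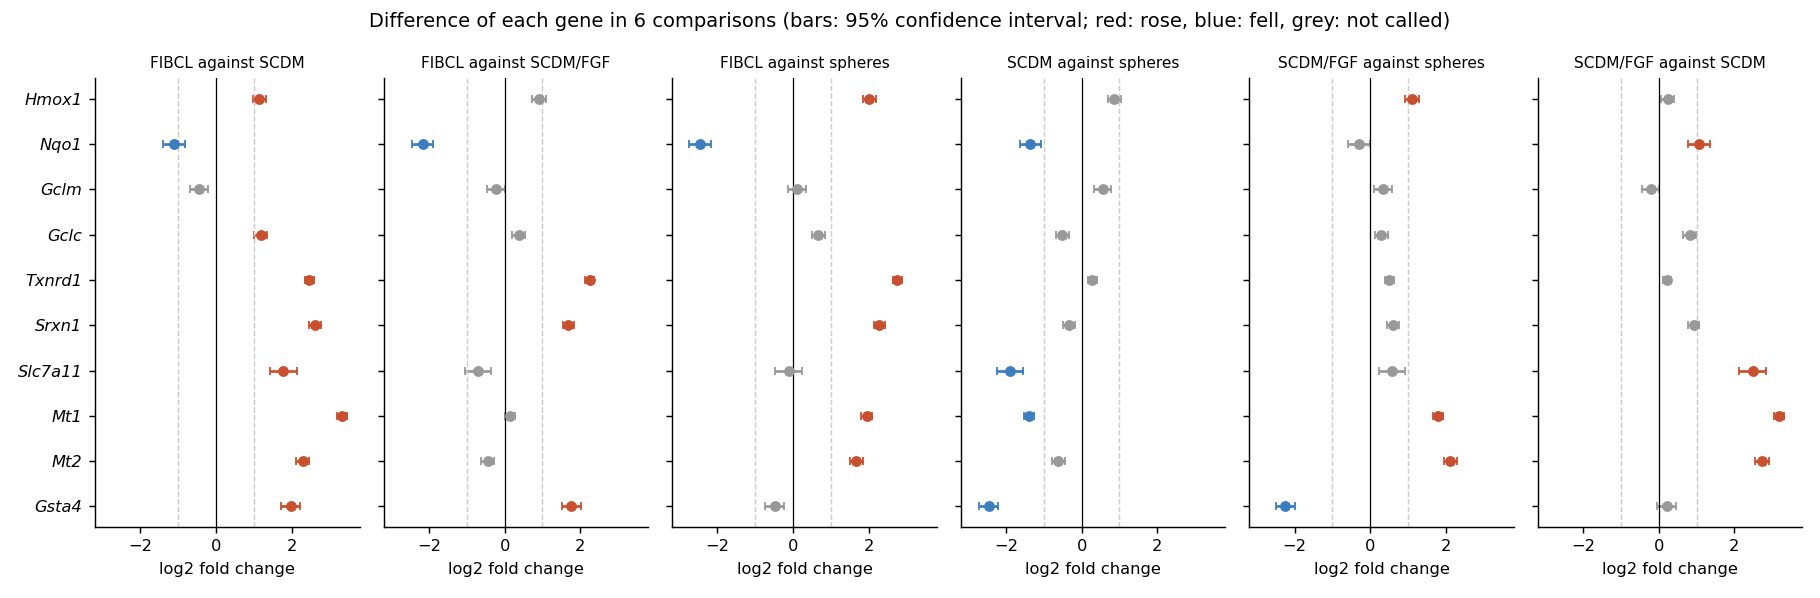
Log2 fold change (x axis, first group minus second) of the 10 genes (rows) in 6 comparisons (panels), with 95% confidence intervals. Mt1 has the highest value in FIBCL against SCDM, at 3.33, and Nqo1 is the 1 gene that fell there, at -1.11, while on unscaled TPM Hmox1 and Gclc drop under the limit in that panel and Mt1 changes sign in FIBCL against SCDM/FGF.

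Nfe2l2 and Keap1 passed the fold limit in no comparison, although Nfe2l2 lay at the limit in FIBCL against SCDM. Nfe2l2 had means of 181 ± 3.2 (SD, n = 3) scaled TPM in FIBCL, 147 ± 4.9 in SCDM/FGF, 90.4 ± 0.12 in SCDM and 115 ± 1.1 in spheres. FIBCL against SCDM gave 0.99 ± 0.03 (log2, SE, limma, adjusted p = 2.13e-10), just under the fold limit. With means of 180.878 and 90.3912, only the 1 added to each level kept it under the limit. On unscaled TPM the 2 groups lay closer, at 140 to 151 in FIBCL and 94.9 to 96.9 in SCDM. Keap1 had means from 27.7 scaled TPM in FIBCL to 33.7 in SCDM, and their log2 difference was -0.27 ± 0.04. Bach1 was at 22.1, 18.6, 16.3 and 35.8 scaled TPM in spheres, SCDM, SCDM/FGF and FIBCL and rose by 1.08 ± 0.06 in FIBCL against SCDM/FGF (limma, adjusted p = 2.65e-08), which was 0.78 and not called on unscaled TPM. Maff, which encodes a small MAF protein, rose by 2.04 ± 0.07 in FIBCL against SCDM (limma, adjusted p = 1.83e-10), with means of 6.01, 14.6, 25.7 and 63.0 in the same order, and Nfe2l1, a relative of NRF2, fell by 1.29 ± 0.04 (limma, adjusted p = 1.67e-10). Of 12 regulators, Maff was the 1 that rose and Nfe2l1 the 1 that fell in that comparison. The other 10, with Nfe2l2 at the limit, were not called, where 13.2% of all genes rose and 16.2% fell. For the metal branch, Mtf1 gave 0.55 ± 0.12 and the zinc exporter Slc30a1 gave 0.61 ± 0.08 in FIBCL against SCDM, both under the fold limit.

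Beyond the 10 genes, most genes of the wider antioxidant system were not called. Of 117 pathway genes in 10 lists, 113 were tested. In FIBCL against SCDM 15 rose and 19 fell, 13.3% and 16.8% of the 113, beside 13.2% and 16.2% of all genes, and 79 were not called. These shares were near those of all genes. On unscaled TPM 10 rose and 28 fell, beside 9.3% and 23.3% of all genes. In SCDM/FGF against SCDM 15 rose and 1 fell, 13.3% and 0.885%, beside 5.73% and 4.04% of all genes, and 97 were not called. On unscaled TPM these were 13 and 3, beside 5.27% and 4.61%. The median log2 fold change of the 113 was 0.16 in FIBCL against SCDM and 0.14 in SCDM/FGF against SCDM, beside -0.07 and -0.02 over all genes.

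The lists are described next for FIBCL against SCDM, where the same 13.2% and 16.2% of all genes rose and fell and no list was tested against other genes. The glutathione transferases had 3 that rose and 5 that fell of 20 tested, with Mgst3 at 1.94 ± 0.12 and Gsta3 at -2.49 ± 0.20. Among 14 thioredoxins and peroxiredoxins 3 fell, namely Txnip, the thioredoxin inhibitor (-2.16 ± 0.11), Sesn1 and Prdx4 (-1.27 ± 0.09), and 11 were not called. Glutathione synthesis and recycling had Cbs and Gss rising and Chac1 (-2.63 ± 0.19), Cth and Ggt5 falling of 10. Chac1, which degrades glutathione, had a mean of 21.1 scaled TPM in SCDM and at most 2.54 in the other groups, so SCDM combined the highest Chac1 with the lowest Slc7a11. Cbs, which makes cystathionine from homocysteine, had 20.6, 4.99 and 5.32 scaled TPM in FIBCL and at most 1.85 in SCDM, and rose by 2.37 ± 0.45, or by 1.77 without FIBCL replicate 1, which lay far above the others. The other detoxification targets had 4 that rose of 13, among them Akr1b8 (2.23 ± 0.05) and Abcc1 (1.01 ± 0.09, or 0.63 on unscaled TPM), whose call was also lost without FIBCL replicate 3 (0.997) or SCDM replicate 1 (0.97).

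Gpx7 was the 1 of 9 glutathione peroxidases and glutaredoxins that fell (-2.74 ± 0.08), and Sod3, the extracellular superoxide dismutase, was the 1 of 5 in its list (-5.28 ± 0.11), with means of 41.4 scaled TPM in SCDM and 0.0856 in FIBCL. Of 8 NADPH-producing enzymes, Me1 rose by 1.54 ± 0.07 and Idh2 fell by 1.15 ± 0.06. In iron handling the ferritin chains split, as Ftl1 rose by 1.86 ± 0.06 while Fth1 fell by 1.65 ± 0.06, and in SCDM/FGF against SCDM Fth1 rose by 1.54 ± 0.06 to a mean of 21280 scaled TPM. Both ferritin genes have processed pseudogene copies that may share their reads. In the zinc list Slc39a8, a zinc importer, rose by 2.58 ± 0.11, and Slc39a14, another, fell by 2.49 ± 0.08. Mt3, the brain metallothionein, was not called in FIBCL against SCDM, with means of 30.1, 10.1, 43.2 and 11.3 scaled TPM in spheres, SCDM, SCDM/FGF and FIBCL and a log2 difference of 0.17 ± 0.17.

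**Figure D5:**
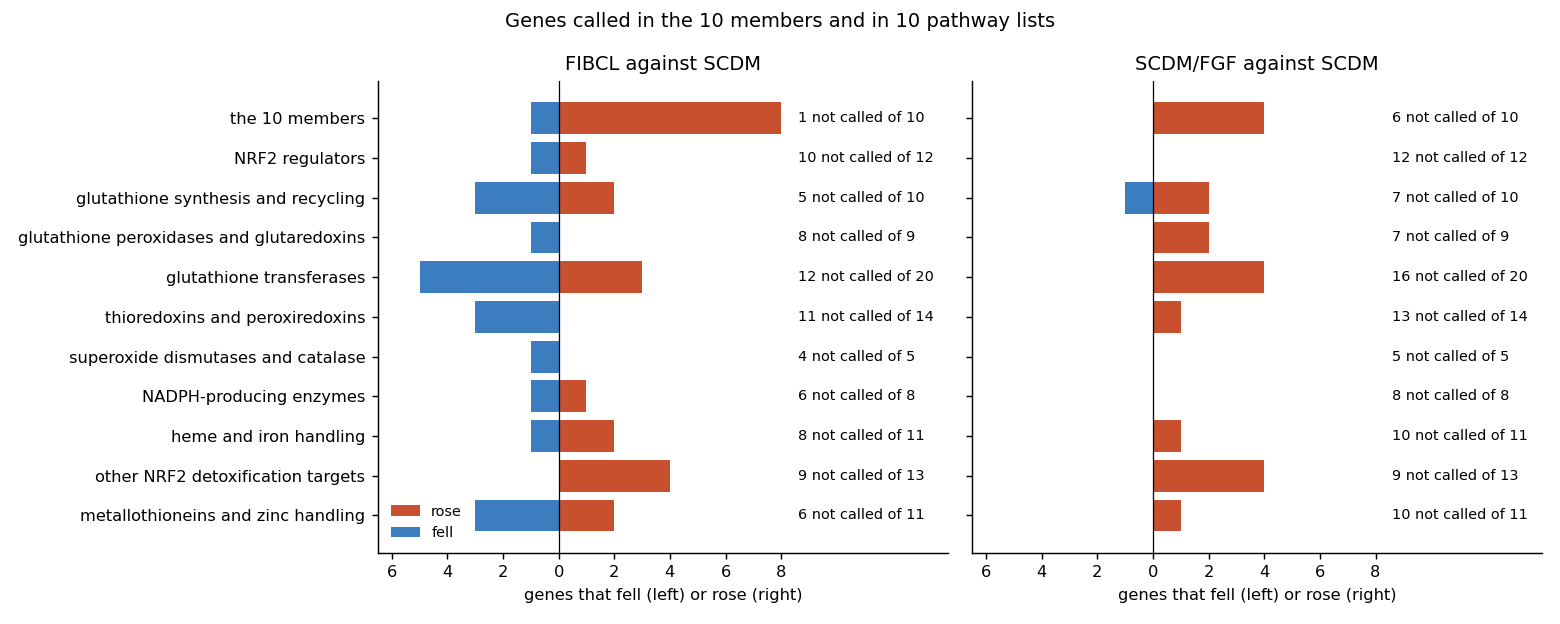
Number of genes that rose (right) or fell (left) in the 10 genes and in 10 pathway lists (rows), for 2 comparisons (panels), with the number not called beside each row. In FIBCL against SCDM 8 of the 10 genes rose, of which Hmox1 and Gclc were not called on unscaled TPM. The pathway lists together had 15 that rose and 19 that fell, beside 13.2% and 16.2% of all genes. On unscaled TPM the lists had 10 and 28, beside 9.3% and 23.3%.

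The genes closest in pattern were sought for Hmox1, Slc7a11 and Mt1 among 8908 genes with a mean of at least 10 TPM, by Pearson's r of log2 levels over 12 libraries. The libraries form 4 groups, so r mostly compares 4 levels and is a description. Me1 (r = 0.990), Gadd45g (0.989) and Plekhb2 (0.989) were closest to Hmox1. For Slc7a11 these were Brinp1 (0.982), Snai1 (0.980) and Phlda1 (0.980), and for Mt1 they were Procr (0.997), Gda (0.991) and Akr1b8 (0.990).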

How the data were processed

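SeqPrep and Sickle served the authors for read trimming, TopHat for alignment and RSEM for quantification. Cufflinks is also named in the submitters' processing notes. The deposited table holds TPM for 55487 genes, although the study's methods speak of a per-kilobase measure. The genome build is not given in the sources used here, so positions come from GENCODE M21 on GRCm38. TPM is not a count, so no count model was used and sequencing depth is unknown. Libraries were scaled by the trimmed mean (30% at each end) of log2 ratios over the 8434 genes that no library listed under 5 TPM. The 16016 genes that reached 1 TPM in 3 or more libraries were tested on log2(scaled TPM + 1) with limma 3.58.1 in R 4.3.3, in 1 model of 4 groups and 6 comparisons, with Benjamini-Hochberg adjustment over all genes within a comparison. The study used EdgeR, which needs counts. The 3 ratios used TPM + 0.1 and exact permutation tests of any difference between the 4 groups. Scripts were tested on simulated data. Named pathway genes were Nfe2l2, Keap1, Bach1, Mtf1, Slc30a1, Slc3a2 and Mt3, and in each list the called gene with the highest and the lowest fold change in FIBCL against SCDM. Other genes are named only as part of a small count and were chosen after their values were seen. The genes and lists were chosen with earlier results of these data known. Alternatives were another scaling, pseudocount, limit on low values, call rule, variance model, a replicate block, the compared groups alone, and each library left out. Leaving out each library for the pathway genes, and Cd68 for the macrophage markers, was added after seeing the data.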

Additional observations from a re-analysis of the deposited data

How the results depend on the processing

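The number of the 10 genes called stayed within 1.5 times the reported one in 127 alternative counts and moved beyond it in 5. With an adjusted p alone (limma), it rose to 9 in FIBCL against SCDM/FGF, 10 in SCDM against spheres, 9 in SCDM/FGF against spheres and 8 in SCDM/FGF against SCDM, and with a log2 limit of 1.5 it was 2 in SCDM against spheres. Leaving out 1 library at a time gave 9 each time in FIBCL against SCDM, 4 against SCDM/FGF, 6 against spheres, 4 in SCDM against spheres and in SCDM/FGF against spheres, and 3 to 4 in SCDM/FGF against SCDM. The log2 span of group means was 1.02 to 1.08 for Mt1 to Mt2, 1.61 to 1.83 for Gclc to Gclm and 3.16 to 3.42 for Slc7a11 to Slc3a2. On unscaled TPM, 9.3% of all genes were called higher and 23.3% lower in FIBCL against SCDM, 8.8% and 20.6% against SCDM/FGF, and 7.87% and 26.9% against spheres, and 5 and 2 of the 10 genes were called higher and lower in the last. The unscaled split was 6.31% and 6.95% in SCDM against spheres, 6.12% and 6.93% in SCDM/FGF against spheres and 5.27% and 4.61% in SCDM/FGF against SCDM. Replicate numbers did not pair the libraries. Deviations of same-numbered libraries correlated at -0.12 to 0.098, and 15 of 36 matched their own number best. With the replicate block, 9, 4, 6, 4, 4 and 4 of the 10 genes were called, and 4708 genes in all against 4695 in FIBCL against SCDM. Without read counts, counting error could not be given.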
